A study of Mus musculus with 24 samples.

Results

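The genes described here encode the enzymes that salvage vitamin B6 and 33 enzymes that use its active form, pyridoxal 5'-phosphate (PLP), as cofactor. Members were taken by gene name from the array's own annotation, with the brightest probe standing for each gene, and all 35 were on the array, among 36610 gene or transcript names. Of the 35, 34 were well above background on all 24 arrays and were tested. Kynu, which encodes kynureninase of the tryptophan pathway, was not well above background on any of the 24 arrays and is given no fold change.

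Whisker (vibrissa) follicles of B6C3F1 mice at postnatal day 9 were kept for 24 h in a serum-containing RPMI medium that all groups shared. The cultures received panthenyl ethyl ether at 0.3% (PEE), pyridoxine hydrochloride at 0.015% (PH), tocopherol acetate at 0.024% (TA), PEE with PH, PEE with TA, PH with TA, all 3 compounds, or none of them (control). Each of the 8 groups had 3 one-colour arrays, from 3 experiments stated to be independent, and each sample pooled total RNA of 10 follicles. PEE is an ether of panthenol, the alcohol form of vitamin B5, PH is the salt of a B6 vitamer and TA is an ester of vitamin E.

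Pyridoxine entering a cell is phosphorylated by pyridoxal kinase (Pdxk) on its way to PLP, and pyridoxal phosphatase (Pdxp) removes the phosphate again. PLP then sits in aminotransferases, decarboxylases, enzymes of serine, glycine and sulfur amino acids, the first enzymes of haem and sphingolipid synthesis, and glycogen phosphorylase. Growing follicles carry dividing matrix cells and make a shaft of cysteine-rich keratin, so serine, glycine, cysteine and polyamine routes are of interest in this tissue.

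Probes that carry results below are shown by the first 30 of their 60 bases, 5' to 3' in the sense of the transcript, so that the measured stretch of each gene can be found. Positions of the whole probe are on mm9, as in the array files.
Pdxk (NM_172134, chr10:77899516-77899575, minus strand): acctgtcagcactgtgtagctgtgtctgtt
Cbs (NM_144855, chr17:31749593-31749652, minus strand): gcacccactttctgtctcaatggatctccc
Psat1 (NM_001205339, chr19:15979622-15979681, minus strand): tgttcatgtatcagtgttttcaatcgactg
Gldc (NM_138595, chr19:30172983-30173042, minus strand): cactaatgtgcctgatctgtcacagcataa
Bcat1 (NM_007532, chr6:144947709-144947768, minus strand): attgccctggaaagatgaaatactaaccac
Alas1 (NM_001291835, chr9:106136284-106136343, minus strand): ccaggccattaccatacccacatagtagcc
Abat (NM_172961, chr16:8621576-8621635, plus strand): ggtgaccacgtgaacagttccatgaattaa
Abat (ENSMUST00000140795.1, chr16:8580610-8580669, plus strand): tattttaaaatgagaataggggatggcaag
The last line is a second Abat probe, some distance upstream on the same strand, which did not follow the first. It is described with Abat. The Gad1 probe of this array that was above background is annotated to a transcript listed as non-coding, XR_001780815, while 3 other Gad1 probes were above background on 0 arrays.

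Levels are log2 signal relative to the 75th percentile of the same array, and differences between groups are in log2 units, with ± giving the standard error. A gene was called changed when its limma p-value, adjusted by Benjamini and Hochberg over the 22065 genes tested in that comparison, was below 0.05. The standard error of a member's difference between 2 groups of 3 arrays ran from 0.05 to 0.23, and that of an average effect of a compound, 12 arrays against 12, from 0.03 to 0.12. Between 58.3% and 62.5% of spots per array were above background, arrays of 1 group correlated across genes at 0.993 to 0.997, and the 75th percentile signal lay between 142 and 248. The hair follicle epithelium markers were detected on every array. Of the follicle mesenchyme markers, Alx4, Prom1, Sox18, Vcan, Col1a1 and Pdgfra were above background on all 24 arrays. Corin, a dermal papilla marker of the same list, was above background on 3 arrays. RNA came from whole follicles, so fewer cells of a type and less RNA per cell cannot be told apart.

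Across the members, 25 of 34 were called in at least 1 of the 15 comparisons, as were 62.1% of all 22065 genes. With PEE-PH 9 members rose and 8 fell, against 14.9% of all genes rising and 20.9% falling. With PEE-TA 7 rose and 3 fell (10.2% and 15.3% of all genes), with PH-TA 5 rose and 4 fell (12.1% and 17.5%), and with all 3 compounds 5 rose and 4 fell (7.78% and 8.72%). Single compounds called fewer: 2 members rose and 4 fell with PEE (5.20% and 5.69% of all genes), 0 rose and 3 fell with PH (1.60% and 3.65%), and 1 rose and 0 fell with TA (0.399% and 1.43%). The median difference of the 34 members lay between -0.01 and 0.06 in the 7 comparisons with control, and that of all genes between -0.06 and 0.02. Single arrays moved some of these counts: 6 members were called with PEE-TA without PEE-TA replicate 2 or 3, 5 with PH-TA without PH-TA replicate 1, 1 with PH without PH replicate 2 or any single control array, and 0 to 2 with TA.

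**Figure D1:**
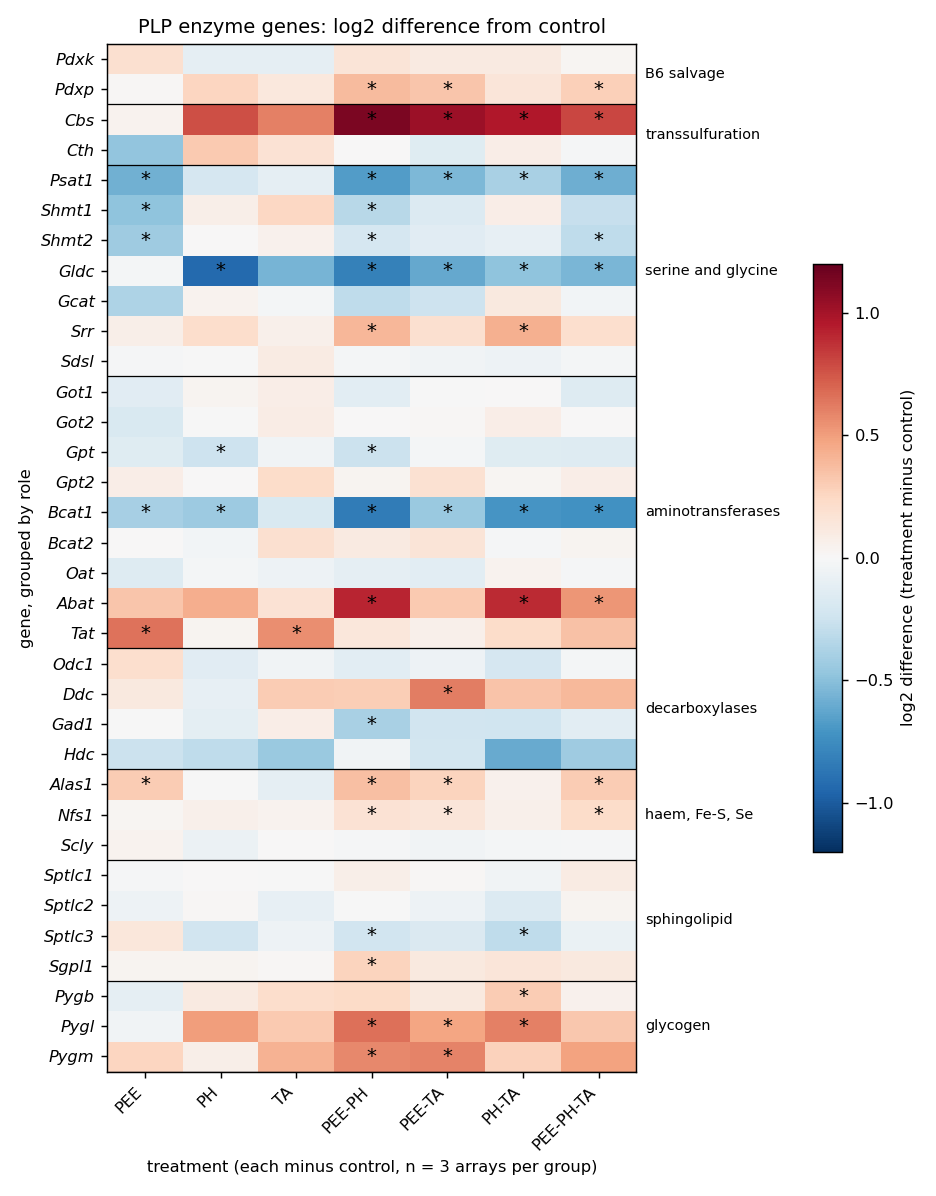
Log2 difference of each tested member (rows, grouped by role) in each of the 7 treatments minus control (columns, 3 arrays per group), with red for higher and blue for lower. An asterisk marks an adjusted p below 0.05. Cbs and Abat are red across the combined treatments, Psat1, Gldc and Bcat1 are blue there, and the aspartate aminotransferases Got1 and Got2 stay pale.

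The average effect of a compound is its mean difference over the 4 backgrounds (alone, with each other compound, with both). For PH 7 members rose (Abat, Cbs, Pygl, Srr, Pdxp, Sgpl1, Nfs1) and 6 fell (Bcat1, Gldc, Sptlc3, Psat1, Gpt, Odc1), where 13.9% of all genes rose and 17.4% fell. For PEE 5 rose (Alas1, Pygm, Pdxk, Pdxp, Nfs1) and 7 fell (Psat1, Shmt1, Cth, Gcat, Bcat1, Shmt2, Oat), where 12.8% rose and 14.2% fell. For TA only Ddc passed, a rise, where 2.78% rose and 5.20% fell. The member medians were -0.01 for PH, 0.03 for PEE and 0.04 for TA, and those of all genes -0.02, 0.01 and -0.01. Leaving out 1 array could end the PH calls of Nfs1, Psat1 and Sgpl1 (highest adjusted p 0.0517 without TA replicate 1, 0.0575 without PEE-TA replicate 1 and 0.0582 without PH-TA replicate 1), and gave 0 to 3 members for TA.

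Array signal differed between arrays with and without PH. The 75th percentile had a median of 195 on the 12 arrays with PH (175 to 248) and 176 on the 12 without it (142 to 200). Group medians were 216 for PEE-PH and 142 for PEE, 229 for PH-TA and 178 for TA, 183 for PH and 170 for control, but 185 for PEE-PH-TA and 196 for PEE-TA. When that signal was entered as a covariate, 0 members were called for the average effect of PH, against 13 without it. For the average effect of PEE 11 members were called with the covariate and 12 without it. Over all genes the same fit called 1.17% for PH, against 31.3% without the covariate, and 22.1% for PEE, against 27.0% without it. Its part in the PH results was not tested beyond this fit, in which the average effect on Abat was 0.39 (adjusted p = 0.191), on Gldc -0.47 (0.0940), on Bcat1 -0.27 (0.164) and on Cbs 0.22 (0.610).

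**Figure D2:**
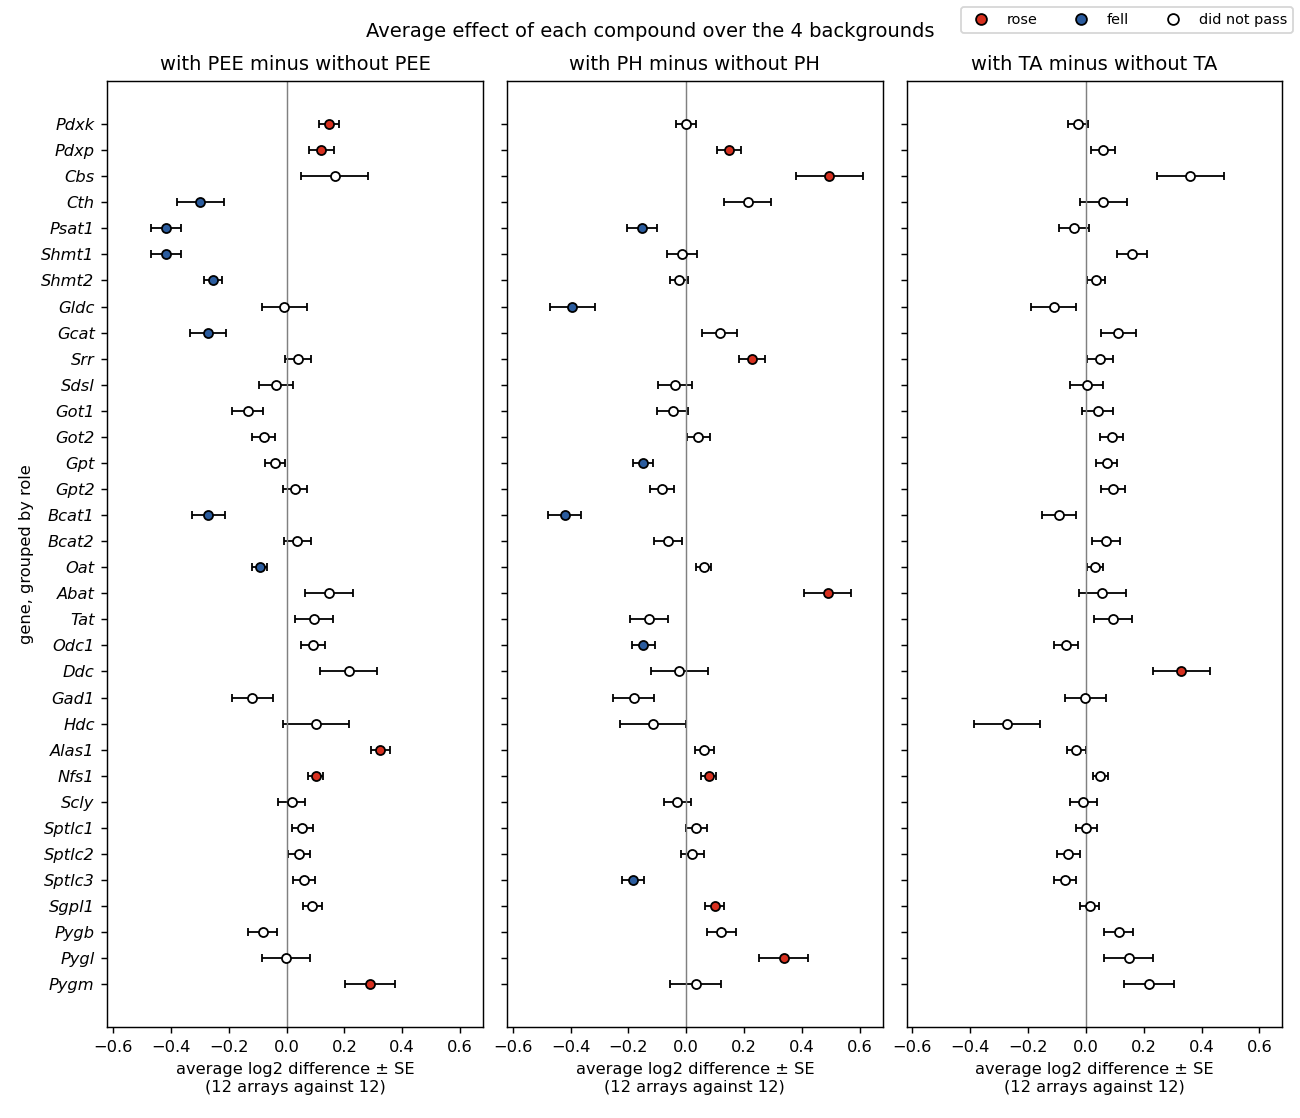
Average log2 difference ± standard error for each tested member (rows), with minus without PEE, PH and TA (panels, 12 arrays against 12). Red points rose, blue points fell and open points did not pass an adjusted p of 0.05. The points at the far left of the PEE panel are Psat1 and Shmt1, both at -0.42, and those at the far right of the PH panel are Abat at 0.49 and Cbs at 0.50.

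Of the salvage genes, Pdxk was called in 1 comparison and Pdxp in 7. Pdxk, the kinase that traps B6 vitamers, stood at 2.48, 2.46 and 2.50 in PEE cultures, 2.21, 2.18 and 2.16 in PH cultures and 2.21, 2.08 and 2.25 in TA cultures. Combined compounds gave Pdxk values of 2.56, 2.37 and 2.41 in PEE-PH cultures, 2.35, 2.48 and 2.36 in PEE-TA cultures, 2.42, 2.52 and 2.25 in PH-TA cultures and 2.39, 2.29 and 2.28 with all 3 compounds, against 2.37, 2.23 and 2.28 in control. The PEE and PEE-PH arrays lay above all control arrays, and the PH arrays below them, but no comparison with control passed. Only its average effect of PEE did, 0.15 ± 0.04 (adjusted p = 0.00399), which is a 1.11-fold level, while that of PH was -0.00 ± 0.04 (adjusted p = 0.981). PH alone gave -0.11 ± 0.07 (adjusted p = 0.421). A second Pdxk probe above background on all 24 arrays gave an average effect of PEE of 0.07 ± 0.10 (adjusted p = 0.69 over 33340 probes), and had the opposite sign with PEE-PH, -0.16 against 0.16 for the brightest probe.

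Pdxp, the phosphatase that takes PLP apart, was at 0.08, 0.33 and 0.14 in PEE cultures, 0.52, 0.50 and 0.25 in PH cultures and 0.38, 0.21 and 0.31 in TA cultures. Combined compounds gave Pdxp values of 0.53, 0.64 and 0.50 in PEE-PH cultures, 0.49, 0.54 and 0.48 in PEE-TA cultures, 0.33, 0.20 and 0.41 in PH-TA cultures and 0.47, 0.52 and 0.37 with all 3 compounds, against 0.26, 0.17 and 0.08 in control. All arrays of PEE-PH, PEE-TA and PEE-PH-TA were above every control array. It rose by 0.38 ± 0.08 (adjusted p = 0.00184) with PEE-PH, by 0.33 ± 0.08 (adjusted p = 0.00787) with PEE-TA and by 0.28 ± 0.08 (adjusted p = 0.0269) with all 3, the last ended by leaving out any of 4 single arrays (highest adjusted p 0.12 without control replicate 3). With PH alone the value was 0.26 ± 0.08 (adjusted p = 0.0819) and did not pass. Its average effects were 0.15 ± 0.04 (adjusted p = 0.0132) for PH and 0.12 ± 0.04 (adjusted p = 0.0399) for PEE, and the call for PEE was lost without any of 15 single arrays.

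Of 6 other genes of B6 handling that were tested, 3 rose and 0 fell as an average effect of PH, and 3 rose and 1 fell with PEE. Of all genes, 13.9% rose and 17.4% fell as an average effect of PH, and 12.8% rose and 14.2% fell with PEE. These shares also apply to the list counts below that are given for those average effects. Alpl, the alkaline phosphatase that frees pyridoxal from PLP outside cells, rose by 0.61 ± 0.08 (5.52e-05) with PH and 0.23 ± 0.08 (0.0411) with PEE (adjusted p in parentheses). The aldehyde oxidases, a family that in liver oxidises pyridoxal to pyridoxic acid, gave the other large changes: Aox1 rose by 1.36 ± 0.10 (8.13e-09) with PEE and Aox4 by 0.58 ± 0.17 (0.0134) with PH. Plpbp, a PLP-binding protein, was 0.10 ± 0.03 (0.0186) with PH and -0.13 ± 0.03 (0.00535) with PEE.

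**Figure D3:**
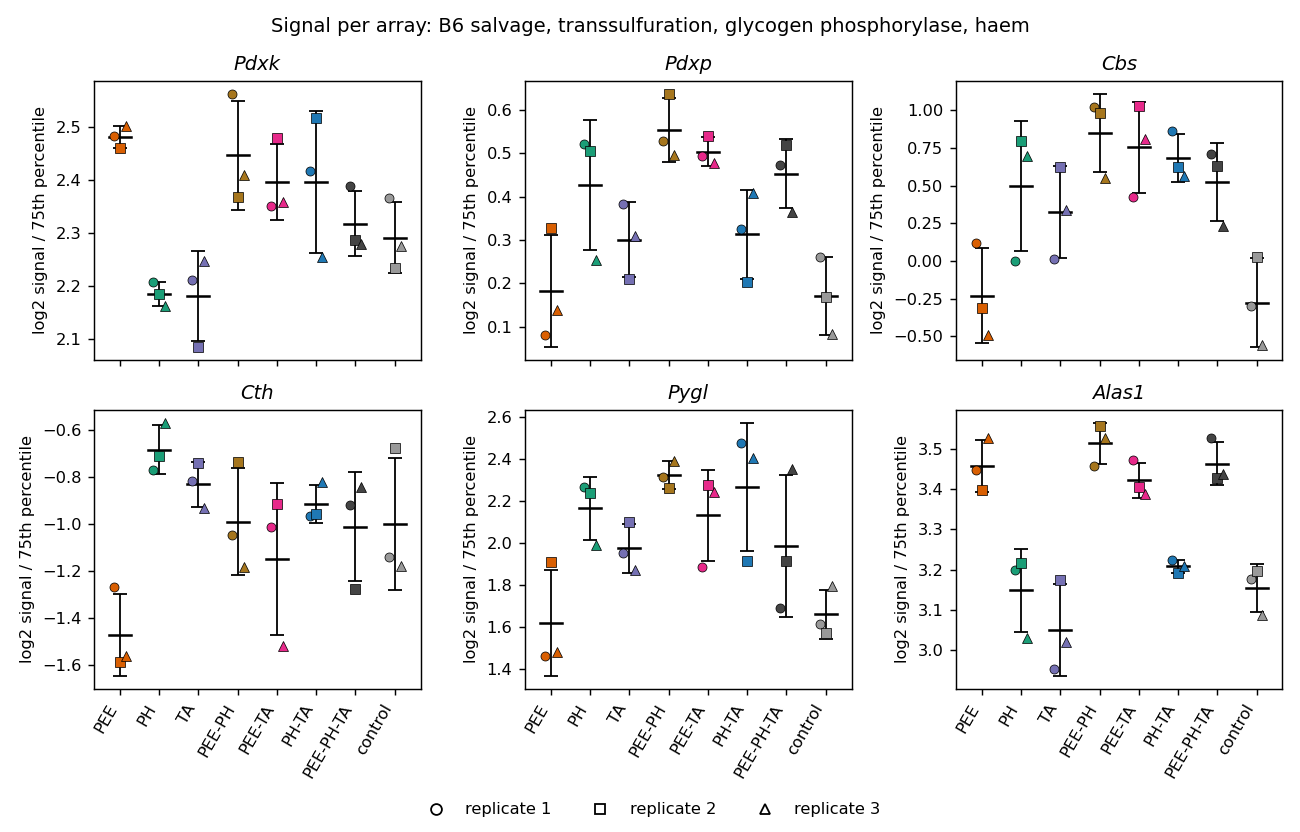
Level of 6 members on each array (log2 signal relative to the array's 75th percentile, vertical axis) in the 7 treatments and control (horizontal axis), with a marker shape per replicate number, a bar at the mean and whiskers of 1 SD (n = 3). Cbs sits near control with PEE alone and higher in each combined treatment, and Alas1 is higher in the 4 groups that hold PEE.

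Cbs, cystathionine beta-synthase, which opens the transsulfuration route by joining homocysteine to serine, had the largest rise among members. Cbs had 1 probe on the array. Its arrays read 0.12, -0.32 and -0.50 in PEE cultures, -0.0001, 0.79 and 0.70 in PH cultures and 0.01, 0.62 and 0.34 in TA cultures. Combined compounds gave Cbs values of 1.02, 0.98 and 0.55 in PEE-PH cultures, 0.43, 1.03 and 0.81 in PEE-TA cultures, 0.86, 0.62 and 0.56 in PH-TA cultures and 0.71, 0.63 and 0.23 with all 3 compounds, against -0.30, 0.03 and -0.56 in control. Every array of the 4 combined treatments was above every control array, while PEE, PH and TA arrays overlapped control. The rise was 1.13 ± 0.23 (adjusted p = 0.00114) or 2.18-fold with PEE-PH, 1.03 ± 0.23 (adjusted p = 0.00381) with PEE-TA, 0.96 ± 0.23 (adjusted p = 0.00541) with PH-TA and 0.80 ± 0.23 (adjusted p = 0.0235) with all 3. The last of these was lost without any of 4 single arrays, with an adjusted p up to 0.115 without control replicate 3. Alone, PEE gave 0.05 ± 0.23 (adjusted p = 0.933), PH 0.77 ± 0.23 (adjusted p = 0.0592) and TA 0.60 ± 0.23 (adjusted p = 0.188), none past the threshold.

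Cth, cystathionine gamma-lyase, which splits cystathionine to give cysteine, did not follow Cbs. It stood at -1.27, -1.59 and -1.56 in PEE cultures, -0.77, -0.71 and -0.57 in PH cultures and -0.82, -0.74 and -0.93 in TA cultures. Combined compounds gave Cth values of -1.05, -0.74 and -1.19 in PEE-PH cultures, -1.01, -0.92 and -1.52 in PEE-TA cultures, -0.97, -0.96 and -0.82 in PH-TA cultures and -0.92, -1.28 and -0.84 with all 3 compounds, against -1.14, -0.68 and -1.18 in control. The PEE arrays, the group with the lowest mean, were below all control arrays, and PEE alone gave -0.47 ± 0.16 (adjusted p = 0.0726). Its average effect of PEE was a fall, -0.30 ± 0.08 (adjusted p = 0.0103), and PEE-PH was above PEE by 0.48 ± 0.16 (adjusted p = 0.0299), a call that any of 4 single arrays ended (highest adjusted p 0.149 without PEE-PH replicate 2).

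Among 12 tested genes around transsulfuration and methionine, 7 rose and 2 fell as an average effect of PEE, with a list median of 0.29. Slc7a11, the cystine importer, rose by 2.36 ± 0.09 (6.8e-13) and Gclm, a subunit of the enzyme that begins glutathione synthesis, by 1.48 ± 0.05 (3.35e-13). Ahcy, which makes homocysteine, fell by 0.17 on the log2 scale (adjusted p = 0.0374), and Mat2a, which makes S-adenosylmethionine, by 0.16 (0.000129). With PH 3 rose and 0 fell, with Suox, sulfite oxidase, at 0.37 ± 0.03 (1.45e-06) and Ethe1, a mitochondrial persulfide dioxygenase, at 0.22 ± 0.04 (0.000348).

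Psat1, Shmt1, Shmt2 and Gcat, of serine and glycine metabolism, fell as an average effect of PEE. Psat1, the aminotransferase that makes phosphoserine during serine synthesis, stood at 3.096, 3.05 and 3.26 in PEE cultures, 3.47, 3.44 and 3.64 in PH cultures and 3.53, 3.65 and 3.66 in TA cultures. Combined compounds gave Psat1 values of 2.97, 3.18 and 2.99 in PEE-PH cultures, 3.33, 3.16 and 3.04 in PEE-TA cultures, 3.099, 3.40 and 3.49 in PH-TA cultures and 3.20, 2.98 and 3.23 with all 3 compounds, against 3.73, 3.76 and 3.67 in control. No treated array reached the lowest control array. The fall was -0.58 ± 0.10 (adjusted p = 0.00129) with PEE, -0.67 ± 0.10 (adjusted p = 8.61e-05) with PEE-PH, -0.54 ± 0.10 (adjusted p = 0.0011) with PEE-TA and -0.58 ± 0.10 (adjusted p = 0.00077) with all 3. PH-TA gave -0.39 ± 0.10 (adjusted p = 0.00871), lost without PH-TA replicate 1 (0.0663). A second Psat1 probe gave -0.51 with PEE-PH.

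Shmt1 and Shmt2 are the cytosolic and mitochondrial serine hydroxymethyltransferases, which turn serine into glycine and load one-carbon units onto folate. Shmt1 stood at -1.99, -2.06 and -1.93 in PEE cultures, -1.53, -1.48 and -1.30 in PH cultures and -1.30, -1.30 and -1.17 in TA cultures. Combined compounds gave Shmt1 values of -1.75, -1.86 and -1.93 in PEE-PH cultures, -1.60, -1.75 and -1.68 in PEE-TA cultures, -1.48, -1.30 and -1.52 in PH-TA cultures and -1.62, -1.68 and -2.06 with all 3 compounds, against -1.40, -1.45 and -1.68 in control. The PEE and PEE-PH arrays lay below every control array, and the TA arrays above every one, though TA did not pass. Shmt1 was -0.48 ± 0.10 (adjusted p = 0.00581) with PEE and -0.34 ± 0.10 (adjusted p = 0.0173) with PEE-PH, and the PEE-PH call was ended by any of 3 single arrays (highest adjusted p 0.0718 without control replicate 1). Shmt2 ranged over 2.67 to 2.72 with PEE, 3.09 to 3.14 with PH, 3.12 to 3.19 with TA, 2.78 to 2.98 with PEE-PH, 2.95 to 2.99 with PEE-TA, 2.92 to 3.104 with PH-TA, 2.74 to 2.93 with all 3 and 3.08 to 3.16 in control. It was -0.42 ± 0.06 (adjusted p = 0.000288) with PEE, -0.21 ± 0.06 (adjusted p = 0.0168) with PEE-PH and -0.30 ± 0.06 (adjusted p = 0.00285) with all 3, where the PEE-PH call was ended by any of 2 single arrays (highest adjusted p 0.0955 without PEE-PH replicate 3). The average effects of PEE were -0.42 ± 0.05 (adjusted p = 6.5e-06) for Psat1, -0.42 ± 0.05 (adjusted p = 8.05e-06) for Shmt1 and -0.26 ± 0.03 (adjusted p = 7.11e-06) for Shmt2, and Gcat, which makes glycine from a breakdown product of threonine, was -0.27 ± 0.06 (adjusted p = 0.00257).

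Of 15 tested partners in serine, glycine and one-carbon metabolism, 0 rose and 6 fell with PEE, and 0 rose and 5 fell with PH. Phgdh, the first enzyme of serine synthesis, was -0.50 ± 0.04 (7.43e-08) with PEE. With PH the largest falls were Psph, the last enzyme of serine synthesis, at -0.30 ± 0.05 (0.000252) and Tyms, thymidylate synthase, at -0.26 ± 0.05 (0.00127). Proliferation markers moved alongside: 5 of 7 fell and 0 rose as an average effect of PEE (list median -0.38), and 5 of 7 fell with PH (median -0.22). Their summed level, in units of the array's 75th percentile, was 37.1 to 42.1 with PEE, 38.8 to 42.4 with PH, 45.7 to 48.7 with TA, 31.0 to 33.5 with PEE-PH, 33.5 to 39.6 with PEE-TA, 35.5 to 40.0 with PH-TA, 36.2 to 39.1 with all 3 compounds and 47.4 to 49.7 in control, and all 7 were above background on every array. Other marker lists moved with PEE too: 0 of 12 hair follicle epithelium genes rose and 5 fell, 2 of 8 macrophage genes rose and 5 fell, and 3 of 5 blood endothelium genes rose and 0 fell. The part of these markers in the serine gene values was not tested.

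**Figure D4:**
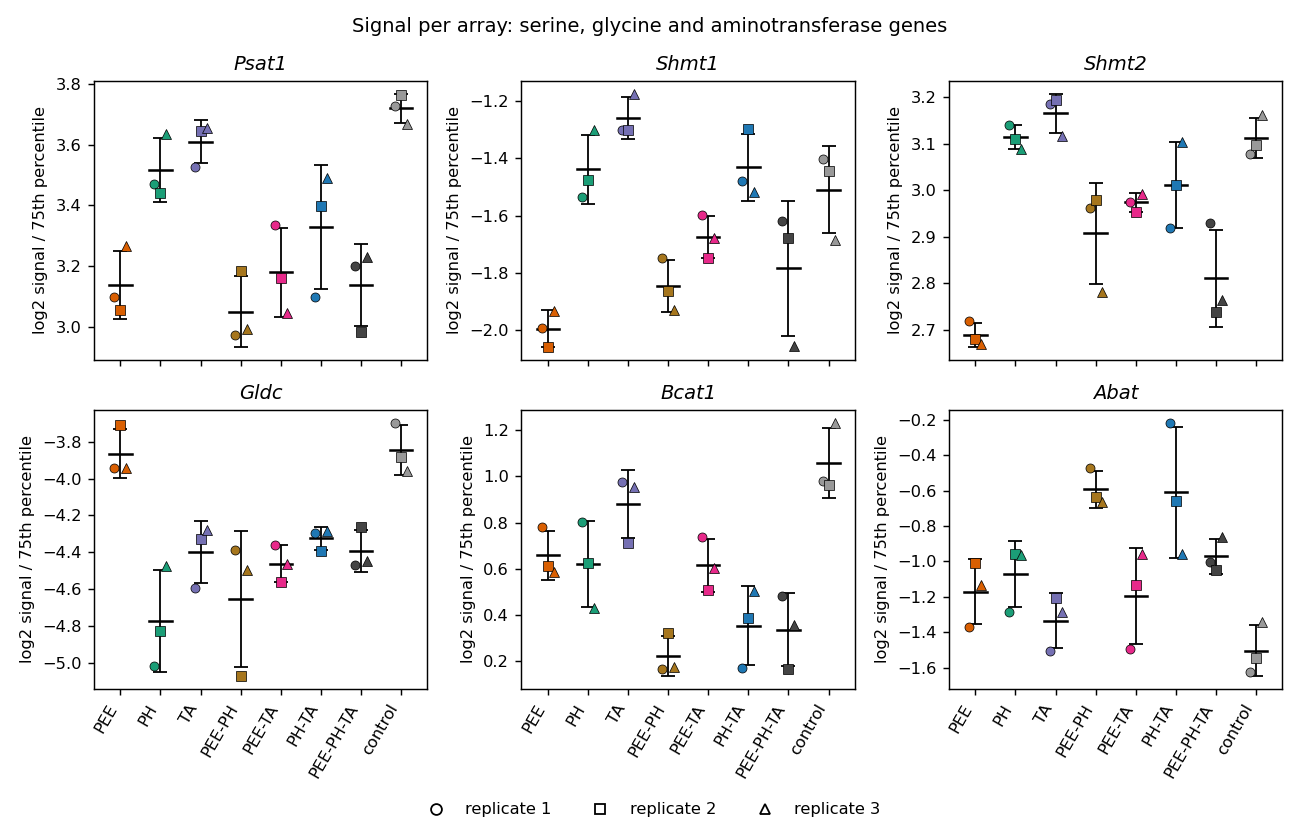
Level of 6 members on each array (log2 signal relative to the array's 75th percentile, vertical axis) in the 7 treatments and control (horizontal axis), with a marker shape per replicate number, a bar at the mean and whiskers of 1 SD (n = 3). Psat1 lies below control in every treatment, Gldc lies near control with PEE alone, and Abat is highest with PEE-PH and PH-TA.

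Gldc, the PLP-binding subunit of the glycine cleavage system, fell with PH but not detectably with PEE. It stood at -3.94, -3.71 and -3.94 in PEE cultures, -5.02, -4.83 and -4.47 in PH cultures and -4.59, -4.33 and -4.28 in TA cultures. Combined compounds gave Gldc values of -4.39, -5.07 and -4.50 in PEE-PH cultures, -4.36, -4.56 and -4.46 in PEE-TA cultures, -4.29, -4.39 and -4.29 in PH-TA cultures and -4.47, -4.26 and -4.45 with all 3 compounds, against -3.70, -3.88 and -3.96 in control. Every group except PEE lay below all control arrays. Gldc was the dimmest tested member, with a mean level of -4.34. Its probe was above background on all 24 arrays, while a second Gldc probe was above background on 0. The difference was -0.93 ± 0.15 (adjusted p = 0.00267) with PH, -0.81 ± 0.15 (adjusted p = 0.000607) with PEE-PH, -0.62 ± 0.15 (adjusted p = 0.00732) with PEE-TA and -0.02 ± 0.15 (adjusted p = 0.961) with PEE. TA alone gave -0.55 ± 0.15 (adjusted p = 0.0711), which did not pass. PH-TA gave -0.48 ± 0.15 (adjusted p = 0.0253) and all 3 compounds -0.55 ± 0.15 (adjusted p = 0.0194), calls that 4 and 3 single arrays ended, up to an adjusted p of 0.0914 without control replicate 1 for PH-TA and 0.0798 without control replicate 1 for all 3.

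Srr, serine racemase, which makes D-serine, went the other way. Its arrays read -0.81, -0.55 and -0.80 in PEE cultures, -0.55, -0.57 and -0.61 in PH cultures and -0.84, -0.66 and -0.70 in TA cultures. Combined compounds gave Srr values of -0.28, -0.40 and -0.50 in PEE-PH cultures, -0.69, -0.46 and -0.64 in PEE-TA cultures, -0.30, -0.23 and -0.56 in PH-TA cultures and -0.53, -0.64 and -0.61 with all 3 compounds, against -0.79, -0.81 and -0.77 in control. All PH, PEE-PH, PEE-TA, PH-TA and PEE-PH-TA arrays were above every control array. Of these, PEE-PH and PH-TA passed, with rises of 0.40 ± 0.09 (adjusted p = 0.00221) and 0.43 ± 0.09 (adjusted p = 0.00213). Sdsl, a serine dehydratase-like protein, was called in no comparison.

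Bcat1, the cytosolic aminotransferase of leucine, isoleucine and valine, was called in 10 of 15 comparisons, the most of any member, each time as a fall. It stood at 0.78, 0.61 and 0.58 in PEE cultures, 0.80, 0.63 and 0.43 in PH cultures and 0.98, 0.71 and 0.95 in TA cultures. Combined compounds gave Bcat1 values of 0.17, 0.32 and 0.17 in PEE-PH cultures, 0.74, 0.51 and 0.60 in PEE-TA cultures, 0.17, 0.39 and 0.50 in PH-TA cultures and 0.48, 0.17 and 0.36 with all 3 compounds, against 0.98, 0.96 and 1.23 in control. All arrays with PEE or PH lay below every control array, while TA overlapped control. The fall was -0.84 ± 0.12 (adjusted p = 3.36e-05) with PEE-PH, a level of 0.559-fold, -0.71 ± 0.12 (adjusted p = 0.000436) with PH-TA and -0.72 ± 0.12 (adjusted p = 0.000346) with all 3. PEE alone gave -0.40 ± 0.12 (adjusted p = 0.0329), PH alone -0.44 ± 0.12 (adjusted p = 0.0349) and PEE-TA -0.44 ± 0.12 (adjusted p = 0.00967), and leaving out control replicate 3 ended all 3 of these calls (adjusted p of 0.131, 0.174 and 0.0603). Bcat2, the mitochondrial form, was called in none, with 0.11 for PEE-PH.

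Abat, GABA transaminase, passed against control, as a rise, wherever PH was combined with another compound. Its brightest probe stood at -1.37, -1.01 and -1.13 in PEE cultures, -1.29, -0.96 and -0.97 in PH cultures and -1.51, -1.21 and -1.29 in TA cultures. Combined compounds gave Abat values of -0.47, -0.64 and -0.67 in PEE-PH cultures, -1.49, -1.13 and -0.96 in PEE-TA cultures, -0.22, -0.66 and -0.96 in PH-TA cultures and -1.003, -1.05 and -0.86 with all 3 compounds, against -1.62, -1.55 and -1.34 in control. The PH, PEE-PH, PH-TA and PEE-PH-TA arrays lay above every control array. PH alone gave 0.43 against control and PH added to PEE-TA gave 0.22, neither past the threshold. The rise that passed was 0.91 ± 0.16 (adjusted p = 0.000362) or 1.88-fold with PEE-PH, 0.90 ± 0.16 (adjusted p = 0.000927) with PH-TA and 0.53 ± 0.16 (adjusted p = 0.0316) with all 3, the last ended by any of 5 single arrays (highest adjusted p 0.103 without control replicate 1).

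The second Abat probe, designed to the Ensembl transcript ENSMUST00000140795.1, did not show that rise. It stood at -1.87, -1.85 and -1.50 with PEE-PH, -2.30, -1.99 and -0.88 with PH-TA and -1.41, -0.21 and -1.28 in control, a wider spread within groups. Its differences were -0.77 ± 0.41 with PEE-PH (adjusted p = 0.159 over 33340 probes) and -0.75 ± 0.41 with PH-TA (0.182), so neither passed, and the Abat rise rests on 1 probe. Of 22 other member probes above background on all 24 arrays, from 19 genes, 14 had the sign of the brightest probe with PEE-PH. Over the 15 comparisons this number was lowest, at 10, with PH against control and PEE-PH-TA against PEE-TA. It was 11 for the effect of PH with minus without TA, and highest, at 19, for the average effect of PH. Beside the members' calls in the 15 comparisons, these other probes gave 72 values. Of these, 58 had the sign of the call, 36 of them past the threshold, and the 14 of opposite sign were 6 of Abat, 5 of Nfs1, 2 of Gpt and 1 of Shmt2. The only pair called in opposite directions with PEE-PH was that of Nfs1, which makes sulfur available for iron-sulfur clusters: 0.18 ± 0.05 (adjusted p = 0.0108) for the brightest probe and -0.60 ± 0.11 for the other (0.000551). In PEE-PH against PEE and in the average effect of PH, 1 pair each was also called in opposite directions. There the brightest Nfs1 probe gave 0.16 and 0.08, and the other -0.51 and -0.24. Cbs, Cth, Pdxp, Pygl, Sptlc3, Oat and Got2 had 1 probe each on the array, so no other probe could be compared.

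**Figure D5:**
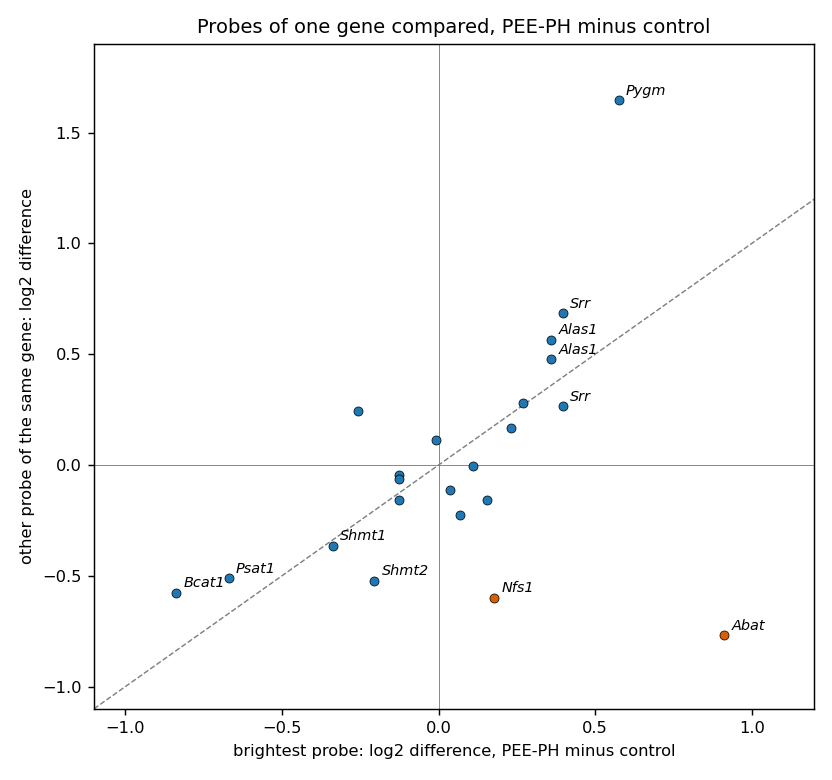
Each point is another probe of a member above background on all 24 arrays, with its log2 difference PEE-PH minus control (vertical axis) against that of the gene's brightest probe (horizontal axis), and a dashed line of equality. Bcat1, Psat1, Shmt1, Alas1 and Srr lie near the line, Pygm lies above it, and the orange points, Nfs1 and Abat, lie at -0.60 and -0.77 while their brightest probes lie above 0.

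Among the other aminotransferases, Tat, which starts tyrosine breakdown, stood at -3.46, -3.04 and -3.03 in PEE cultures, -3.82, -3.84 and -3.72 in PH cultures and -3.44, -3.32 and -3.05 in TA cultures. Combined compounds gave Tat values of -3.71, -3.78 and -3.57 in PEE-PH cultures, -3.66, -3.88 and -3.77 in PEE-TA cultures, -3.51, -3.93 and -3.37 in PH-TA cultures and -3.49, -3.41 and -3.52 with all 3 compounds, against -3.77, -3.83 and -3.88 in control. The PEE, TA and PEE-PH-TA arrays were above all control arrays. It rose with PEE alone, 0.65 ± 0.13 (adjusted p = 0.00386), and TA alone, 0.56 ± 0.13 (adjusted p = 0.0389), and was lower with PEE-PH than with PEE, -0.51 ± 0.13 (adjusted p = 0.00639). Its call with TA was ended by any of 5 single arrays (highest adjusted p 0.181 without control replicate 3). Gpt, alanine aminotransferase, had an average effect of PH of -0.15 ± 0.04 (adjusted p = 0.00434), and Oat, ornithine aminotransferase, an average effect of PEE of -0.09 ± 0.03 (adjusted p = 0.015). A second Gpt probe gave -0.02 ± 0.06 (adjusted p = 0.797 over 33340 probes) for that effect of PH, and 0.24 with PEE-PH against -0.26 for the brightest probe, so the Gpt calls rest on 1 probe. Got1, Got2 and Gpt2 were called in none.

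Of 11 tested partners in branched-chain and proline-ornithine routes, 4 rose and 1 fell with PH, and 0 rose and 6 fell with PEE. Pycr1, the last enzyme of proline synthesis, was -0.46 ± 0.09 (0.0016) with PH and -0.40 ± 0.09 (0.00363) with PEE. Dbt, of the branched-chain keto acid complex, rose with PH by 0.35 ± 0.08 (0.00281), as did Arg1, arginase 1, by 0.28 ± 0.08 (0.0175). Aldh18a1, the first enzyme of proline synthesis, was -0.41 ± 0.04 (1.22e-07) with PEE. Among 8 partners in tryptophan and tyrosine breakdown, Tdo2 (tryptophan dioxygenase) was the 1 that fell with PH, -0.36 ± 0.09 (0.00566), and Qprt, of NAD synthesis, the 1 that rose with PEE, 0.30 ± 0.09 (0.0179).

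Among decarboxylases, Ddc, which makes dopamine and serotonin, stood at -2.54, -2.28 and -2.81 in PEE cultures, -2.17, -2.78 and -3.31 in PH cultures and -2.53, -2.25 and -2.29 in TA cultures. Combined compounds gave Ddc values of -2.40, -2.17 and -2.51 in PEE-PH cultures, -1.95, -2.13 and -2.07 in PEE-TA cultures, -2.46, -2.16 and -2.32 in PH-TA cultures and -2.22, -2.29 and -2.31 with all 3 compounds, against -2.65, -2.86 and -2.46 in control. The PEE-TA, PH-TA and PEE-PH-TA arrays lay above every control array. A second Ddc probe was above background on 0 arrays. Of the comparisons with control, Ddc passed with PEE-TA, a rise of 0.61 ± 0.20 (adjusted p = 0.0305). Ddc lost that call without any of 5 single arrays (highest adjusted p 0.117 without control replicate 2). Its average effect of TA was 0.33 ± 0.10 (adjusted p = 0.0474), ended by any of 20 single arrays. As an average effect of TA, 3 of 5 melanocyte markers tested rose and 0 fell (median 0.27), where 2.78% of all genes rose. With PEE-TA 2 of these 5 rose (median 0.45), where 10.2% of all genes did. The markers had a summed level of 3.88 to 4.51 with PEE-TA and 2.48 to 3.57 in control, with Slc45a2 above background on 8 of the 24 arrays. With all 3 compounds 2 of 5 markers rose (median 0.68, sum 4.60 to 4.68), as did 7.78% of all genes, and Ddc was 0.39 ± 0.20 (adjusted p = 0.207). With PEE-PH 2 of 5 markers rose (median 0.39, sum 3.65 to 4.07), as did 14.9% of all genes, and Ddc was 0.30 ± 0.20 (adjusted p = 0.259). The part of these markers in the Ddc values was not tested.

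Odc1, ornithine decarboxylase, which opens polyamine synthesis, ranged over 3.79 to 3.99 with PEE, 3.54 to 3.66 with PEE-PH and 3.58 to 3.79 in control, and its average effect of PH was -0.15 ± 0.04 (adjusted p = 0.011). Of 11 polyamine partners, 3 rose and 4 fell with PH and 4 rose and 0 fell with PEE, led by Smox, spermine oxidase, at 0.46 ± 0.05 (5.75e-07) with PEE. Of all genes 13.9% rose and 17.4% fell with PH, and 12.8% rose and 14.2% fell with PEE. With PH, Smox was 0.17 ± 0.05 (0.00915), the antizyme Oaz2 0.16 ± 0.03 (0.0015), Sms (spermine synthase) -0.18 ± 0.07 (0.0424) and the antizyme Oaz1 -0.15 ± 0.04 (0.0133). The Gad1 probe, named for glutamate decarboxylase and annotated to a non-coding transcript, was -0.39 ± 0.14 (adjusted p = 0.0394) with PEE-PH, lost without any of 4 single arrays (highest adjusted p 0.192 without PEE-PH replicate 1).

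Hdc, histidine decarboxylase, the histamine-making enzyme of mast cells, was called in no comparison. Its arrays ranged over -1.53 to -1.08 with PEE-PH, -2.11 to -1.83 with PH-TA and -1.61 to -1.08 in control, and its difference was -0.61 ± 0.23 (adjusted p = 0.0528) with PH-TA and -0.04 ± 0.23 (adjusted p = 0.901) with PEE-PH. With PEE-PH and with PH-TA 20.9% and 17.5% of all genes fell, and all 7 mast cell markers tested did (medians -0.78 and -1.02). Their summed level, over 8 listed genes, was 16.5 to 21.0 with PEE-PH, 12.8 to 19.7 with PH-TA and 23.6 to 39.2 in control, where Fcer1a was above background on 3 of the 24 arrays and Ms4a2 on 16. Of 9 partners in GABA and histamine handling, 4 rose and 1 fell with PH: Slc6a13, a GABA transporter, rose by 0.44 ± 0.10 (0.00472), Gabrp, a GABA receptor subunit, by 0.39 ± 0.10 (0.00581), and the histamine receptor Hrh4 was -0.32 ± 0.08 (0.00671). With PEE, 1 rose and 2 fell: Aldh5a1, which clears the product of Abat, was 0.21 ± 0.07 (0.0281), Gabrp -0.66 ± 0.10 (4.78e-05) and Hrh1 -0.47 ± 0.16 (0.0321).

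Alas1, the first enzyme of haem synthesis, was called higher in each of the 4 groups that held PEE, and not with PH, TA or PH-TA. It ranged over 3.40 to 3.53 with PEE, 3.03 to 3.22 with PH, 2.95 to 3.18 with TA, 3.46 to 3.56 with PEE-PH, 3.39 to 3.47 with PEE-TA, 3.19 to 3.22 with PH-TA, 3.43 to 3.53 with all 3 compounds and 3.09 to 3.20 in control, so that no array with PEE overlapped one without it. The rise was 0.30 ± 0.06 (adjusted p = 0.00529) with PEE, 0.36 ± 0.06 (adjusted p = 0.000361) with PEE-PH, 0.27 ± 0.06 (adjusted p = 0.0059) with PEE-TA and 0.31 ± 0.06 (adjusted p = 0.00276) with all 3, and the average effect of PEE was 0.32 ± 0.03 (adjusted p = 5.66e-07). Its 2 other probes rose too, by 0.56 and 0.48 with PEE-PH.

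The rest of the haem list did not move one way. Of 9 tested partners 3 rose and 3 fell with PEE, and 1 rose and 0 fell with PH. Hmox1, which breaks haem down, rose by 1.95 ± 0.05 (3.13e-14) with PEE and Fech, which inserts iron, by 0.16 ± 0.03 (0.000435), while Cpox and Uros, enzymes of the middle steps, were -0.27 ± 0.04 (7.85e-05) and -0.23 ± 0.04 (0.000126). Urod was the 1 that rose with PH, 0.12 ± 0.03 (0.00257). The selenocysteine lyase gene Scly was called in no comparison.

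For glycogen phosphorylase, which frees glucose units from glycogen, the liver form Pygl stood at 1.47, 1.91 and 1.48 in PEE cultures, 2.27, 2.24 and 1.99 in PH cultures and 1.95, 2.10 and 1.87 in TA cultures. Combined compounds gave Pygl values of 2.31, 2.26 and 2.39 in PEE-PH cultures, 1.88, 2.27 and 2.24 in PEE-TA cultures, 2.48, 1.92 and 2.41 in PH-TA cultures and 1.69, 1.92 and 2.35 with all 3 compounds, against 1.62, 1.57 and 1.79 in control. PH, TA and the 3 paired treatments lay above every control array. The rise was 0.66 ± 0.17 (adjusted p = 0.00554) with PEE-PH and 0.60 ± 0.17 (adjusted p = 0.0124) with PH-TA, and the PH-TA call was lost without PH-TA replicate 1 (0.0726). With PEE-TA it was 0.47 ± 0.17 (adjusted p = 0.0478), lost without any of 17 single arrays (highest adjusted p 0.171 without PEE-TA replicate 2).

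The muscle form Pygm stood at -0.50, -0.16 and -0.53 in PEE cultures, -0.23, -0.62 and -0.91 in PH cultures and -0.20, -0.50 and -0.02 in TA cultures. Combined compounds gave Pygm values of -0.29, -0.04 and 0.08 in PEE-PH cultures, -0.05, -0.41 and 0.29 in PEE-TA cultures, -0.45, -0.32 and -0.36 in PH-TA cultures and -0.07, -0.23 and -0.22 with all 3 compounds, against -0.73, -0.63 and -0.61 in control. All groups except PH lay above every control array, and 2 of them passed against control, PEE-PH and PEE-TA, with rises of 0.58 ± 0.17 (adjusted p = 0.0152) and 0.60 ± 0.17 (adjusted p = 0.0176). The first was lost without PEE-PH replicate 3 (0.0588), and the second also, with an adjusted p of up to 0.1 without PEE-TA replicate 3. In the same treatments 14.9% and 10.2% of all genes rose, and 6 of 10 skeletal muscle markers did with each, with medians of 1.02 and 1.09. Their summed level was 100 to 131 with PEE-PH, 85.2 to 157 with PEE-TA and 54.5 to 65.6 in control. With PEE alone 0 of 10 rose (5.20% of all genes) and the sum was 48.9 to 84.9. PH alone also gave 0 risers (1.60% of all genes), with a sum of 24.7 to 105. Some of these markers rose where Pygm did not pass against control. In PH-TA cultures 4 of 10 did (median 0.56, sum 78.1 to 87.7), and in TA cultures 1 of 10 (median 0.83, sum 80.8 to 121). Of all genes 12.1% rose with PH-TA and 0.399% with TA. All 3 compounds together gave 0 rising markers (7.78% of all genes), a median of 0.61 and a sum of 81.7 to 121. On every array all 10 markers were above background, and their part in the Pygm rise was not tested. Pygb, the brain form, rose with PH-TA by 0.30 ± 0.10 (adjusted p = 0.0285), ended by any of 4 single arrays (highest adjusted p 0.117 without control replicate 3). Of 14 glycogen partners, 5 rose with PEE, led by Gbe1, the branching enzyme, at 0.71 ± 0.09 (1.72e-05) and Phka1, a phosphorylase kinase subunit, at 0.24 ± 0.05 (0.000635), and 0 passed with PH.

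In sphingolipid synthesis, the core subunits of serine palmitoyltransferase, Sptlc1 and Sptlc2, were called in no comparison, while Sptlc3, the alternative catalytic subunit, was lower at -0.31 ± 0.08 (adjusted p = 0.00656) with PH-TA and -0.19 ± 0.04 (adjusted p = 0.00175) as an average effect of PH. Sptlc3 ranged over 1.96 to 2.00 with PH-TA and 2.24 to 2.37 in control, with no overlap. Sgpl1, the lyase that ends sphingosine-1-phosphate breakdown, rose by 0.27 ± 0.07 (adjusted p = 0.00403) with PEE-PH, over 3.51 to 3.60 with PEE-PH and 3.22 to 3.34 in control. Of 19 partners 3 rose and 1 fell with PH, where 13.9% of all genes rose and 17.4% fell. The changes were led by Sgms2, a sphingomyelin synthase, at 0.27 ± 0.06 (0.00421), with Ormdl3, a brake on the first enzyme, at 0.14 ± 0.03 (0.00255) and Sptssa, its small subunit, at -0.18 ± 0.04 (0.00371). With PEE 2 rose and 0 fell, Kdsr at 0.20 ± 0.03 (0.000227) and Cers2, a ceramide synthase, at 0.12 ± 0.04 (0.0171). Of 14 PLP enzymes outside the 35, 2 rose and 1 fell with PH (Kyat3 at 0.21 ± 0.06 (0.00748), Kyat1 at 0.20 ± 0.06 (0.0117) and the erythroid Alas2 at -0.25 ± 0.07 (0.0165)). With PEE 1 rose and 4 fell, with Mocos at 0.32 ± 0.04 (2.14e-06), Thnsl1 at -0.52 ± 0.16 (0.0186) and Tha1 at -0.22 ± 0.07 (0.0194).

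Adding the B6 vitamer to a culture that already held another compound was tested directly. With PEE-PH against PEE alone 10 members rose and 6 fell, where 12.9% of all genes rose and 20.6% fell. Cbs was higher by 1.08 ± 0.23 (adjusted p = 0.00186), Pygl by 0.70 ± 0.17 (adjusted p = 0.00411), Abat by 0.58 ± 0.16 (adjusted p = 0.0112) and Pdxp by 0.37 ± 0.08 (adjusted p = 0.00266). Gldc was -0.79 ± 0.15 (adjusted p = 0.000874), Bcat1 -0.44 ± 0.12 (adjusted p = 0.00751), Sptlc3 -0.37 ± 0.08 (adjusted p = 0.00152) and Odc1 -0.33 ± 0.08 (adjusted p = 0.00468). Shmt2, which fell with PEE alone, was 0.22 ± 0.06 (adjusted p = 0.0128) higher with PEE-PH than with PEE. Without PEE-PH replicate 1 the count was 10 members, the Abat call was lost without PEE replicate 1 (0.0589), and that of Shmt2 by leaving out either of 2 single arrays (highest adjusted p 0.0664 without PEE-PH replicate 2).

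With PH-TA against TA alone 2 members rose and 1 fell, where 2.37% of all genes rose and 1.78% fell: Abat was 0.72 ± 0.16 (adjusted p = 0.0238), Srr 0.37 ± 0.09 (adjusted p = 0.0309) and Bcat1 -0.53 ± 0.12 (adjusted p = 0.0219), and leaving out PH-TA replicate 1 ended all 3. The count was also 0 without TA replicate 1 or 3, 1 without PH-TA replicate 2 and 5 without PH-TA replicate 3. With PEE-PH-TA against PEE-TA 0 members were called by limma, 3 had an unadjusted p below 0.05, and 0.172% of all genes rose and 0.0680% fell.

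The effect of PH with PEE present minus its effect without PEE passed for 0 members and 0% of all 22065 genes, and 0 members had an unadjusted p below 0.05. The corresponding difference for TA passed for 5 members, Gldc, Cbs, Pdxp, Pygl and Shmt2, where 13.7% of all genes passed. For Gldc, PH gave -0.93 ± 0.15 (adjusted p = 0.00267) against control, and PH-TA gave 0.07 ± 0.15 (adjusted p = 0.798) against TA. For Cbs, PH with PEE present gave 1.08 ± 0.23 (adjusted p = 0.00186), while PH added to PEE-TA gave -0.23 ± 0.23 (adjusted p = 0.711). The 9 members called in none of the 15 comparisons, Got1, Got2, Gpt2, Bcat2, Scly, Sdsl, Sptlc1, Sptlc2 and Hdc, had differences from -0.61 to 0.24 and a lowest adjusted p of 0.0528.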

How the data were processed

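The scanner output of 24 one-colour Agilent arrays, 3 for each of 8 groups, and the authors' value table were analysed. The deposited signal intensities came, per the file headers, from Agilent Feature Extraction 12.0.3.1 run on images of 1 green channel, although the labels name biotin as label, with probe positions on mm9. Per the labels, replicates are independent experiments. Replicate number and slide coincide, and p-values measure the spread between these samples.

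Each spot was log2 of the deposited processed signal intensity minus the array's 75th percentile. Spots flagged by the scanner software as non-uniform or outlying were set to missing, spots of a probe were averaged, and 25 probes lacking a value were left out. Testing was limited to probes that cleared background on all arrays of 1 or more groups, which left 33340 probes and, with the brightest probe per name, 22065 genes. Limma 3.58.1 in R 4.3.3 fitted 1 mean per group on all 24 arrays (16 residual and 2.19 prior degrees of freedom), with 15 contrasts. Benjamini and Hochberg adjustment was made over all genes of each comparison, and the threshold was 0.05. The members, the 11 lists of partner genes, the 12 marker lists and the comparisons were chosen with earlier results of these data known. Named with every array are Pdxk, Pdxp and the 12 called members with the largest log2 difference. Of each partner list up to 2 risers and 2 fallers per average effect are named, by size, and some repeats of a gene between PH and PEE, and the members given by ranges, were chosen with their values seen. Some items under this rule are not reported here.

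Other settings tried were quantile normalization, a normexp background (offset 50), the authors' deposited log2 value table (column medians 3.73 to 3.78, each of its 24 columns matching its own scan best; its background step is not given in the sources used here), leaving dim probes in, averaging all tested probes of a gene, the replicate number as a block, a trended and robust prior, array signal as a covariate, only the arrays compared, and leaving out each array or replicate number. Figures were drawn with Python 3.11.15 and matplotlib 3.10.9.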

Additional observations from a re-analysis of the deposited data

Results flagged for a closer look

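For 5 members the effect of PH differed between cultures with and without TA, by a test of that difference in the limma fit. The effect of PH in cultures with TA minus its effect in cultures without TA was 0.93 ± 0.15 for Gldc (adjusted p = 0.000711), -0.86 ± 0.23 for Cbs (0.0185), -0.53 ± 0.17 for Pygl (0.0436), -0.33 ± 0.08 for Pdxp (0.0129) and -0.27 ± 0.06 for Shmt2 (0.00851), each averaged over cultures with and without PEE. For Gldc, PH gave -0.93 against control and -0.79 on top of PEE, while it gave 0.07 on top of TA and 0.07 on top of PEE-TA. For Cbs the same 4 values were 0.77, 1.08, 0.36 and -0.23, and for Pygl 0.50, 0.70, 0.29 and -0.15. For Pdxp they were 0.26, 0.37, 0.01 and -0.05, and for Shmt2 0.00, 0.22, -0.15 and -0.16. Across all genes 13.7% passed this test. The Pygl call was lost without any of 16 single arrays, with an adjusted p of 0.0830 without PEE-TA replicate 2.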

How the results depend on the processing

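Of 105 calls of members over the 15 comparisons, 103 remained with the replicate number as a block, 102 with a trended and robust prior, 97 with quantile normalization, 96 with normexp, 95 without the filter, 91 in the authors' value table, 84 with the mean of all tested probes, 39 with array signal as a covariate and 46 of 74 with only the arrays compared. 66 calls were ended by no single array and 21 by no replicate number. With the covariate the members called fell to 0 for the average effects of PH and TA, PEE-PH against PEE, PH-TA against TA, and PH-TA and TA against control, and were 10 with PEE-PH, 6 with PEE-TA, 1 with PH and 3 for the effect of PH with minus without TA. With only the arrays compared they were 10 for PEE-PH against PEE and 0 for PH, TA and PH-TA against TA. Normexp gave 12 for PH-TA against TA, 14 for PH-TA, 5 for the average effect of TA and 0 for TA alone. The value table gave 1 for PH, 2 for the average effect of TA and 3 for the effect of PH with minus without TA. Without the filter 1 was called for PH, 5 for PH-TA against TA, 3 for the average effect of TA and 0 for TA alone. The mean of probes gave 3 for the average effect of TA and 1 for PH-TA against TA, quantile normalization 2 for that effect, and the trended prior 0 for TA alone.

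The sign turned with the mean of all probes for Nfs1 (-0.21 with PEE-PH, -0.0587 with PEE-TA, -0.18 for PEE-PH against PEE, -0.0816 for the average effect of PH) and for Abat (-0.0286 for PH-TA against TA). It turned with the covariate for Gad1 (0.31) and Sgpl1 (-0.0128) in PEE-PH against PEE and for Sgpl1 in the average effect of PH (-0.00016). The causes were not tested beyond these fits.

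Leaving out 1 array or replicate number gave 0 to 7 members for PEE, 0 to 4 for PH, 0 to 2 for TA, 9 to 18 for PEE-PH, 0 to 10 for PEE-TA, 4 to 11 for PH-TA, 2 to 10 for all 3 compounds, 5 to 17 for PEE-PH against PEE, 0 to 5 for PH-TA against TA, 4 to 15 for the average effect of PH, 6 to 13 for PEE, 0 to 3 for TA and 0 to 6 for the effect of PH with minus without TA. PEE-PH-TA against PEE-TA, and the effect of PH with minus without PEE, gave 0 in every setting run.

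The replicate numbers were checked for pairing. Same-numbered arrays of different groups had correlated deviations from -0.19 to 0.35 (median 0.10, 44 of 84 over 0.1), different-numbered ones a median of -0.05, and 19 of 24 arrays correlated best with their own number. All 3 pairs were over 0.1 in 1 of 10 comparisons of 2 groups. As a block the number gave 2 members for the average effect of TA. The number of arrays limits precision.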
